A study of Homo sapiens with 12 samples.

Results

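The tubulin family comprised 10 genes, 4 alpha-tubulins (TUBA1A, TUBA1B, TUBA1C and TUBA4A) and 6 beta-tubulins (TUBB, TUBB2A, TUBB2B, TUBB3, TUBB4B and TUBB6), taken by symbol from a table of 60612 named gene rows. All 10 had a row, and 8 passed the filter on low counts, among 11803 genes tested. The genes were chosen by family, after measured CPM values had shown TUBA1A as one of the genes raised most by abemaciclib against DMSO. Its changes in any comparison that uses abemaciclib or DMSO libraries are therefore given as a description, with no test, and counts of family members refer to 6 tested genes, leaving out TUBA1A and TUBB6, which passed the filter only in groups where it was high.

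RNA came from wild-type CAMA-1 cells, an oestrogen receptor-positive luminal breast cancer line. The cells were grown in serum-containing medium and treated for 5 days with DMSO (the vehicle), abemaciclib at 100 nM, fulvestrant at 5 nM, or both drugs, here called the combination. Abemaciclib inhibits CDK4 and CDK6, the kinases that release cells from G1, and fulvestrant blocks the oestrogen receptor and promotes its degradation. There were 3 replicate cultures of the 1 line in each of the 4 groups, and the sequenced fragments came from the 3′ ends of mRNAs. The labels do not restate the doses of the combination.

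Alpha- and beta-tubulin form the heterodimer from which microtubules are built, and the human genome encodes several near-identical isotypes of each, expressed in different proportions in different tissues. TUBA1B, TUBA1C, TUBB and TUBB4B are broadly expressed, TUBA1A, TUBB2A, TUBB2B and TUBB3 are known for their abundance in neurons, and cells adjust tubulin mRNA stability to the amount of unpolymerised dimer (autoregulation). New tubulin is folded by the CCT chaperonin and the tubulin cofactors, and microtubules are nucleated from the gamma-tubulin ring complex and rebuilt as the spindle in dividing cells.

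Each library held 3299119 to 5164667 counted reads. Levels are given as CPM, a gene's count relative to the total of its library, scaled by trimmed mean of M-values (TMM). A CPM value is a gene's share of the counted mRNA, so that in these bulk samples fewer cells expressing a gene and less of its RNA per cell cannot be told apart. All 10 luminal epithelial markers were detected, with summed levels of 7025 to 7417 CPM in DMSO. Of 11 markers of other cell types, 5 (COL1A2, PDGFRB, PECAM1, CD3E and CD68) were at 0 in every library, and the summed level of the 11 was 14.8 to 19.2 CPM in DMSO, 22.2 to 27.5 with abemaciclib, 22.3 to 28.5 with fulvestrant and 18.1 to 23.3 with the combination, most of it COL1A1. The summed level of 8 proliferation markers was 3066 to 3349 CPM in DMSO, 606 to 675 with abemaciclib, 273 to 312 with fulvestrant and 35.9 to 42.0 with the combination. Fulvestrant replicate 3 stood farthest from its group, and its comparison with fulvestrant replicate 2 gave the highest chi-square per degree of freedom of the 12 replicate pairs (15.3, against 1.87 for the closest pair).

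In DMSO-treated cells the family was dominated by TUBB (2400 ± 438 CPM, SD, n = 3) and TUBA1B (2309 ± 258), whose libraries overlapped. TUBA1C (653 ± 94.4) and TUBB4B (416 ± 9.58) followed, then TUBB2A (54.9 ± 3.47) and TUBA4A (45.3 ± 1.26). TUBA1A (4.07 ± 1.28) and TUBB6 (3.55 ± 1.00) were the lowest of the tested genes, and their libraries overlapped. Because 3′-end counting yields about 1 fragment per transcript, these CPM levels were compared between genes without division by transcript length. With the combination TUBB (1900 ± 168 CPM) stood clear of TUBA1B (494 ± 36.1) and TUBA1C (382 ± 55.2).

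**Figure D1:**
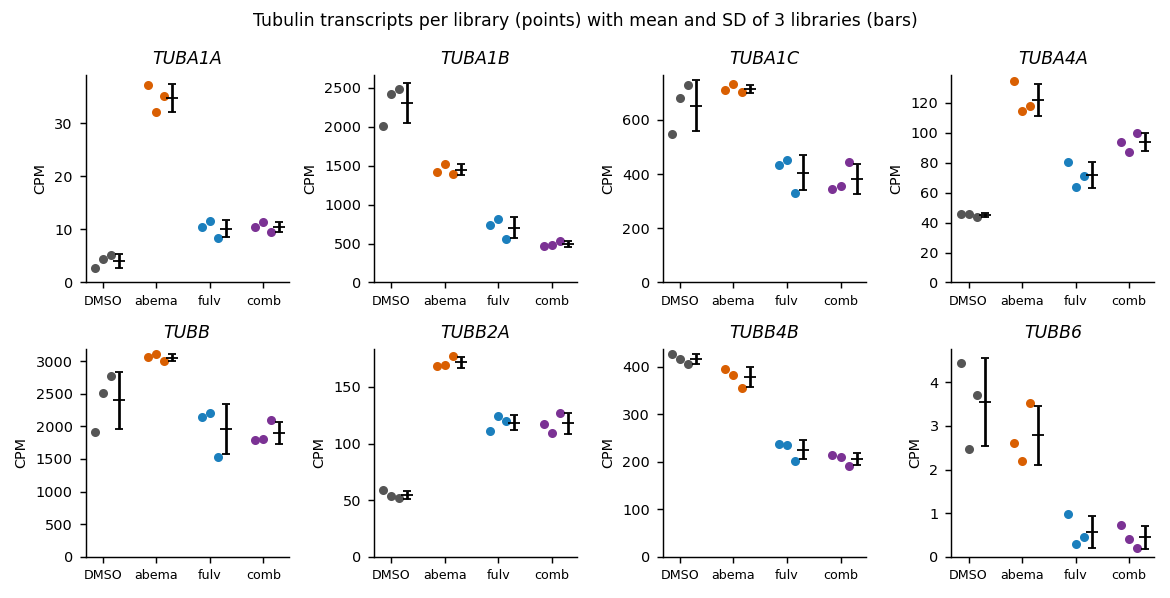
Levels of the 8 tested tubulin genes in each of the 12 libraries, as TMM-scaled CPM on linear axes that start at 0 (abema, abemaciclib; fulv, fulvestrant; comb, combination). Points are libraries and bars are the mean and SD of 3 libraries. TUBA1A, TUBA4A and TUBB2A are lowest in DMSO and highest with abemaciclib, whereas TUBA1B is highest in DMSO and lowest with the combination.

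TUBA1A, TUBB2A and TUBA4A, all minor isotypes in these cells, had their lowest levels in DMSO and their highest with abemaciclib alone. TUBA1A, the alpha-tubulin prominent in developing neurons, had 2.67, 4.37 and 5.17 CPM in the 3 DMSO libraries. With abemaciclib it had 37.2, 32.0 and 35.1 CPM. No abemaciclib library came near the DMSO range. With fulvestrant it had 10.4, 11.6 and 8.43 CPM, and with the combination 10.3, 11.4 and 9.51 CPM. These 2 groups overlapped each other and lay between the DMSO and abemaciclib libraries. The fitted log2 fold change against DMSO was 3.04 ± 0.20 (standard error, as for all fitted values) with abemaciclib, 1.25 ± 0.24 with fulvestrant and 1.30 ± 0.23 with the combination, and the DMSO values rest on 9, 23 and 25 reads. Combination against fulvestrant, a comparison that used neither library group behind the choice of the gene, gave 0.05 ± 0.20 (95% confidence interval -0.36 to 0.46, adjusted p = 0.956).

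TUBB2A, a beta-tubulin common in brain, had 58.8, 53.8 and 52.1 CPM in DMSO and 169, 169 and 177 CPM with abemaciclib. It had 111, 124 and 120 CPM with fulvestrant and 117, 109 and 127 CPM with the combination. All 9 treated libraries lay above all DMSO libraries, and fulvestrant and the combination overlapped. It rose 3.14-fold with abemaciclib (log2 1.65 ± 0.09, adjusted p = 3.25e-14), 2.16-fold with fulvestrant (log2 1.11 ± 0.09, adjusted p = 5.45e-11) and 2.15-fold with the combination (log2 1.11 ± 0.09, adjusted p = 3.91e-11).

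TUBA4A, an alpha-tubulin encoded without the C-terminal tyrosine that most alpha-tubulins carry, had 46.0, 46.0 and 43.8 CPM in DMSO and 134, 115 and 118 CPM with abemaciclib. It had 80.8, 64.0 and 70.9 CPM with fulvestrant and 94.1, 87.5 and 99.6 CPM with the combination. The 4 groups did not overlap one another, in the order DMSO, fulvestrant, combination, abemaciclib. It rose 2.7-fold with abemaciclib (log2 1.43 ± 0.10, adjusted p = 7.33e-12), 1.59-fold with fulvestrant (log2 0.67 ± 0.11, adjusted p = 5.77e-06) and 2.07-fold with the combination (log2 1.05 ± 0.10, adjusted p = 1.37e-09).

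The major alpha-tubulin, TUBA1B, went the other way. It had 2013, 2423 and 2490 CPM in DMSO, 1418, 1528 and 1395 with abemaciclib, 739, 815 and 560 with fulvestrant, and 467, 481 and 535 with the combination. Each group lay wholly below the one before it. Its log2 fold change against DMSO was -0.67 ± 0.11 with abemaciclib (adjusted p = 0.000156), -1.71 ± 0.12 with fulvestrant (adjusted p = 2.09e-09) and -2.22 ± 0.12 with the combination (adjusted p = 6.44e-11). Its fulvestrant and combination ranges were separated by 560 against 535 CPM, and the combination against fulvestrant gave -0.51 ± 0.11 (adjusted p = 0.0275). That last call was lost without fulvestrant replicate 1 or 2 or combination replicate 1 or 2 (adjusted p = 0.0939 to 0.14).

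TUBA1C, the second most abundant alpha-tubulin, had 547, 683 and 728 CPM in DMSO and 710, 733 and 703 with abemaciclib, which overlapped (log2 0.13 ± 0.13, adjusted p = 0.454). It had 433, 450 and 330 CPM with fulvestrant and 345, 357 and 446 with the combination. Both of these groups lay below DMSO and overlapped each other. It fell with fulvestrant (log2 -0.69 ± 0.13, adjusted p = 0.000567) and with the combination (log2 -0.77 ± 0.13, adjusted p = 0.000201).

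TUBB4B, a widely expressed beta-tubulin, had 425, 416 and 406 CPM in DMSO and 395, 383 and 356 with abemaciclib. It had 237, 236 and 201 CPM with fulvestrant and 215, 209 and 191 with the combination. The abemaciclib libraries lay just below the DMSO libraries, but the difference did not pass the test (log2 -0.14 ± 0.08, adjusted p = 0.164). It fell to 0.540 of the DMSO level with fulvestrant (log2 -0.89 ± 0.08, adjusted p = 3.5e-10) and to 0.493 with the combination (log2 -1.02 ± 0.08, adjusted p = 1.69e-11).

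TUBB, the principal beta-tubulin, had 1916, 2515 and 2768 CPM in DMSO, 3066, 3103 and 2996 with abemaciclib, 2140, 2212 and 1524 with fulvestrant, and 1794, 1812 and 2094 with the combination. The abemaciclib libraries lay above all others, and the other 3 groups overlapped. No comparison with DMSO passed the test, at log2 0.35 ± 0.15 with abemaciclib (adjusted p = 0.0975), -0.29 ± 0.15 with fulvestrant (adjusted p = 0.139) and -0.34 ± 0.15 with the combination (adjusted p = 0.0879). These calls turned on single libraries. Without fulvestrant replicate 3 the adjusted p was 0.027 for abemaciclib and 0.0246 for the combination, without DMSO replicate 1 it was 0.0113 for fulvestrant and 0.00513 for the combination, and without DMSO replicate 3 it was 0.0301 for abemaciclib.

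TUBB6, a minor beta-tubulin, was counted at 15, 13 and 18 reads in DMSO, 13, 10 and 14 with abemaciclib, 4, 1 and 2 with fulvestrant, and 3, 2 and 1 with the combination. The fulvestrant and combination libraries lay below both other groups. It passed the filter on the DMSO libraries and 2 of the abemaciclib libraries, so that it had to be high in those groups to enter the fit, and its falls are given as a description, with no test. Its ratio of summed reads per total to DMSO was 0.171 with fulvestrant (95% interval 0.0652 to 0.382, counting error only) and 0.124 with the combination (0.0434 to 0.292). These intervals leave out the spread between cultures and the effect of the filter, so they are no test of the falls.

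TUBB2B and TUBB3, both prominent in neurons, were at or near 0. TUBB2B had 1 read in each abemaciclib library and none elsewhere, and TUBB3 had 1 read, in abemaciclib replicate 3. A count of 0 over the 3 libraries of a group allows a level of up to 0.223 CPM in DMSO, 0.25 with fulvestrant and 0.212 with the combination (3 counts of the group's total, counting error only). The last 500 bases of TUBB3 lie to 99.0% inside a readthrough gene on the same strand, and reads shared by overlapping genes can be left out of counting, so its count does not show that it is not expressed.

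**Figure D2:**
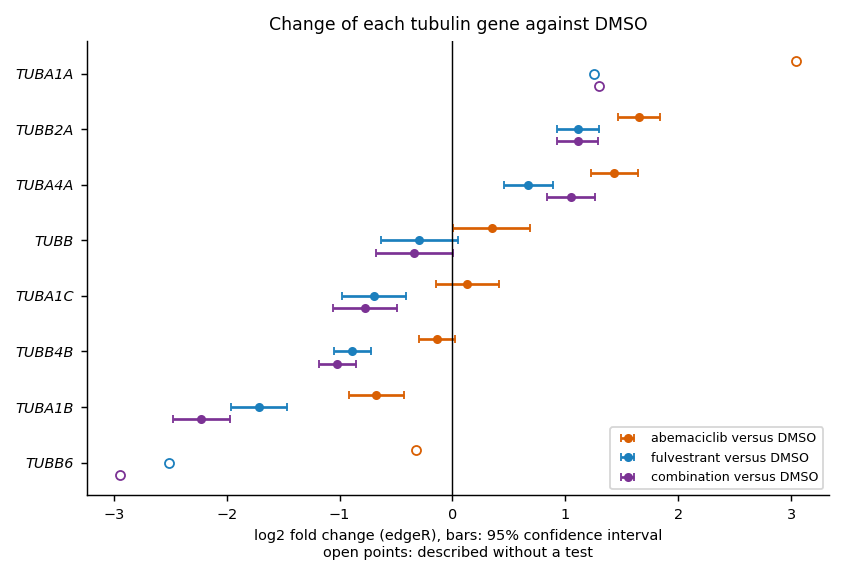
Log2 fold change of each tested tubulin gene against DMSO with abemaciclib, fulvestrant and the combination, with 95% confidence intervals from the edgeR fit for 6 genes and open points without intervals for TUBA1A and TUBB6, which are described without a test. The intervals of TUBB2A and TUBA4A lie above 0 for all 3 treatments, those of TUBA1B below 0 for all 3, and those of TUBA1C and TUBB4B below 0 with fulvestrant and with the combination.

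Of the 6 members counted, 3 passed the test with abemaciclib against DMSO, 2 higher and 1 lower. Over all genes tested 41.2% passed, 20.5% higher and 20.7% lower, so that this count is close to the background. With fulvestrant 5 passed, 2 higher and 3 lower, beside 51.0% of all genes (25.3% higher and 25.7% lower). With the combination 5 passed, again 2 higher and 3 lower, beside 55.2% of all genes (27.7% higher and 27.5% lower). The median log2 fold change of the 6 was 0.24, -0.49 and -0.55 in these comparisons, and that of all genes was 0.00, 0.01 and 0.01. The 3 comparisons share the DMSO libraries.

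Adding fulvestrant to abemaciclib lowered all 6 members counted, and all 6 passed the test. Over all genes 33.5% passed this test, 15.9% higher and 17.7% lower, with a median of 0.01 beside -0.78 for the members. The falls ran from -0.38 ± 0.09 for TUBA4A (adjusted p = 0.00229) and -0.54 ± 0.08 for TUBB2A (adjusted p = 9.34e-06), through -0.69 ± 0.15 for TUBB (adjusted p = 0.00581), -0.88 ± 0.08 for TUBB4B (adjusted p = 1.12e-09) and -0.90 ± 0.13 for TUBA1C (adjusted p = 0.000116), to -1.55 ± 0.12 for TUBA1B (adjusted p = 2.06e-08). The fitted change was -1.74 ± 0.17 for TUBA1A and -2.62 ± 0.57 for TUBB6, both given without a test.

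Adding abemaciclib to fulvestrant moved few of them. TUBA4A was higher (0.38 ± 0.10, adjusted p = 0.0391) and TUBA1B lower, 2 of 6 members beside 1.92% of all genes (0.297% higher and 1.63% lower). Both calls were close to the threshold, and TUBA4A gave adjusted p = 0.021 to 0.239 over the alternative settings. The median was -0.06 for the members and 0.00 for all genes. TUBB2A, which abemaciclib alone raised 3.14-fold, gave -0.01 ± 0.09 here (95% confidence interval -0.18 to 0.17, adjusted p = 0.991).

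The difference between these responses to abemaciclib, with and without fulvestrant, was tested as an interaction. It was negative for TUBB2A (-1.66 ± 0.12, adjusted p = 4.39e-10) and TUBA4A (-1.05 ± 0.14, adjusted p = 4.32e-06), 2 of 6 members, beside 21.1% of all genes (9.49% positive and 11.6% negative). The median was -0.30 for the members and -0.01 for all genes. For TUBA1A the same quantity was -2.99 ± 0.29, given without a test. For TUBA1B it was 0.16 ± 0.16 (95% confidence interval -0.18 to 0.50, adjusted p = 0.516) and for TUBB4B 0.01 ± 0.11 (-0.23 to 0.24, adjusted p = 0.983), so that a difference larger than these intervals was not seen for either. For TUBB it was -0.39 ± 0.22 (adjusted p = 0.241), and -0.54 (adjusted p = 0.0345) without fulvestrant replicate 3.

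**Figure D3:**
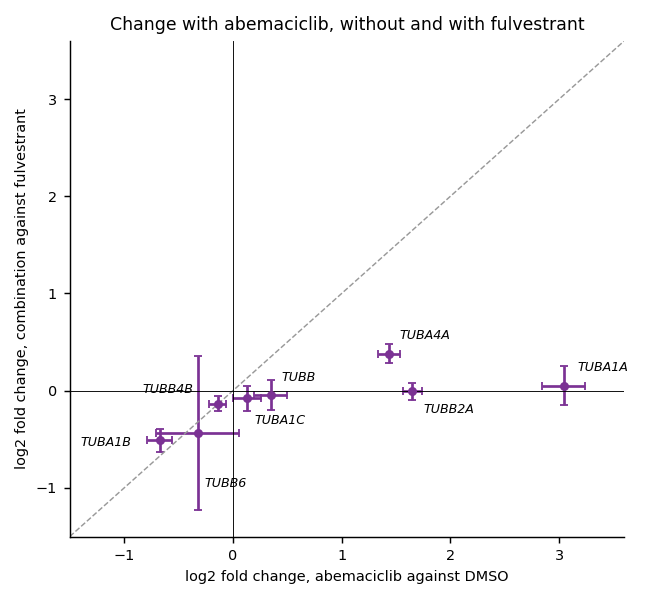
Log2 fold change with abemaciclib in cells without fulvestrant (x axis) and in cells with fulvestrant (y axis) for the 8 tested tubulin genes, with standard errors. The dashed line marks equal change. TUBA1B and TUBB4B lie near it, whereas TUBA1A (3.04 and 0.05), TUBB2A (1.65 and -0.01) and TUBA4A (1.43 and 0.38) lie below it.

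The sums of the isotypes changed unequally. The 4 alpha-tubulin genes together had 3011 ± 352 CPM in DMSO, 2320 ± 80.2 with abemaciclib, 1191 ± 196 with fulvestrant and 981 ± 95.1 with the combination. The 6 beta-tubulin genes together had 2874 ± 424, 3608 ± 65.6, 2303 ± 397 and 2223 ± 164 CPM in the same order. The alpha sum was thus lowest where both drugs were given, while the beta sum was highest with abemaciclib alone.

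The ratio of alpha to beta counts within a library needs no scaling. It was 1.08, 1.06 and 1.01 in DMSO, 0.633, 0.658 and 0.637 with abemaciclib, 0.508, 0.521 and 0.525 with fulvestrant, and 0.431, 0.440 and 0.452 with the combination. No 2 groups overlapped, and the SD within a group was at most 0.0361. No test is given for this ratio, since the members were chosen with results known. It is a ratio of transcripts counted at their 3′ ends, not of proteins.

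**Figure D4:**
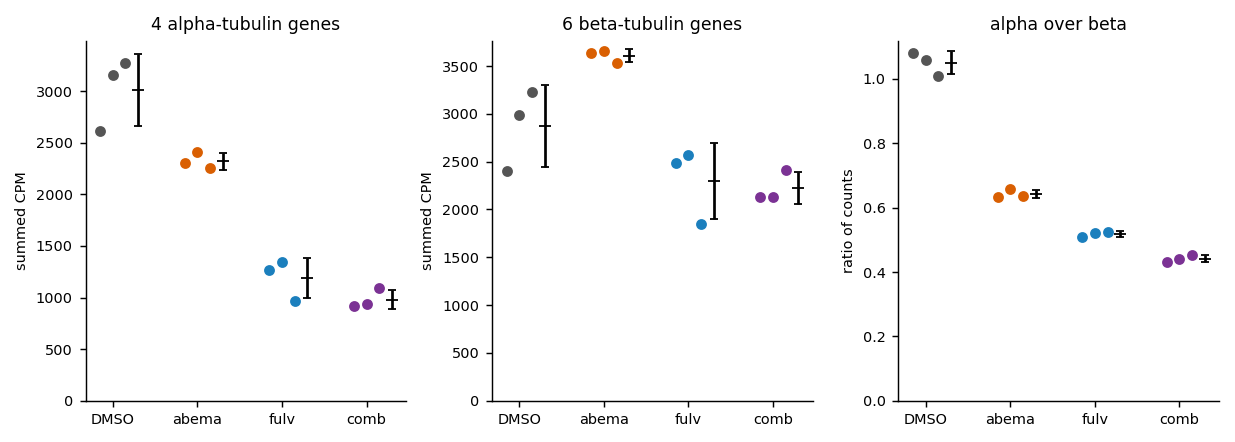
Summed CPM of the alpha-tubulin genes and of the beta-tubulin genes, and the ratio of alpha to beta counts, in each of the 12 libraries. Points are libraries and bars are the mean and SD of 3 libraries. The ratio is 1.05 in DMSO and falls to 0.643, 0.518 and 0.441 with abemaciclib, fulvestrant and the combination, with no overlap between groups.

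Within the alpha-tubulin counts, TUBA1B made up 76.7% ± 0.503 in DMSO, 62.4% ± 0.964 with abemaciclib, 59.0% ± 1.57 with fulvestrant and 50.5% ± 1.19 with the combination. TUBA1C rose as a share from 21.6% ± 0.651 in DMSO to 38.9% ± 1.78 with the combination, and TUBA4A from 1.52% ± 0.216 to 9.59% ± 0.620. TUBA1A, for all its change, was 0.133% ± 0.0285 of alpha counts in DMSO and 1.5% ± 0.153 with abemaciclib. Within the beta-tubulin counts TUBB held 83.2% ± 3.12 in DMSO and 84.7% ± 0.231, 84.9% ± 1.96 and 85.4% ± 1.25 with the 3 treatments, all of which overlapped DMSO. TUBB2A went from 1.95% ± 0.435 to 4.76% ± 0.222, 5.26% ± 1.08 and 5.30% ± 0.201, and TUBB4B from 14.7% ± 2.65 to 10.5% ± 0.400, 9.87% ± 0.915 and 9.28% ± 1.18.

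The spread among replicates was shared by some members. After subtraction of the group means, the log2 levels of TUBA1B, TUBA1C and TUBB moved together over the 12 libraries, with Pearson correlations of 0.943 (TUBA1B and TUBA1C), 0.956 (TUBA1B and TUBB) and 0.966 (TUBA1C and TUBB). All 3 were low in DMSO replicate 1 and in fulvestrant replicate 3 and high in combination replicate 3. TUBA4A and TUBB2A correlated with these 3 genes at -0.23 to 0.05. TUBA1A, at few reads in DMSO, correlated with them at 0.631 to 0.775, TUBB4B at 0.131 to 0.38 and TUBB6 at -0.397 to -0.27. The values are a description over libraries that share their depth and preparation, and the part of any library property in them was not tested.

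**Figure D5:**
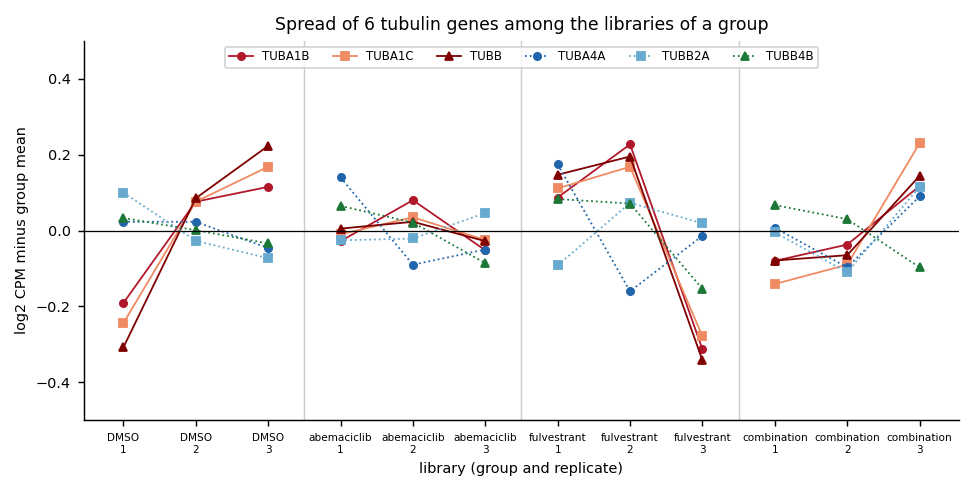
Log2 CPM minus the group mean for 6 tubulin genes in the 12 libraries, where lines only join the points of a gene within a group and carry no order. TUBA1B, TUBA1C and TUBB share their low points in DMSO replicate 1 and fulvestrant replicate 3.

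With the group differences kept, TUBA1A, TUBA4A and TUBB2A correlated with one another at 0.903 to 0.937 over the 12 libraries. TUBA1B correlated with TUBB4B at 0.965. These values came mostly through the group differences. Within groups the values were -0.185 for TUBA1A with TUBA4A, -0.565 for TUBA1A with TUBB2A and -0.076 for TUBA4A with TUBB2A. TUBA1B with TUBB4B gave 0.38 within groups. Among tested genes outside the family, those whose log2 levels followed TUBA1A most closely over the 12 libraries were SLC7A2 (0.979), PLAAT3 (0.978) and OLFML3 (0.977). For TUBA1B they were KPNA2 (0.995), CDC25B (0.994) and CYP4F22 (0.993), for TUBB2A they were S100A10 (0.989), MACF1 (0.984) and ATOX1 (0.980), and for TUBB4B RPS2 (0.994), LRRC59 (0.989) and NAT1 (0.989). The closest genes were RHOV (0.968) for TUBA4A, RPL4 (0.974) for TUBA1C, ATP5MC3 (0.976) for TUBB and SLC39A4 (0.983) for TUBB6. CDC25B activates the mitotic kinase CDK1 and KPNA2 carries proteins into the nucleus. The points share their groups and libraries, and the correlations carry no test.

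TUBA1A, TUBA1B and TUBA1C lie close together on chromosome 12 of GRCh38, at chr12:49184686-49189080 on the minus strand, chr12:49127782-49131397 on the minus strand and chr12:49188736-49274600 on the plus strand. TUBB2A (chr6:3153497-3157544, minus) and TUBB2B (chr6:3223324-3231730, minus) are likewise neighbours, TUBB is at chr6:30717435-30725538 (plus), TUBA4A at chr2:219249710-219277902 (minus), TUBB3 at chr16:89921392-89938761 (plus), TUBB4B at chr9:137241287-137243707 (plus) and TUBB6 at chr18:12307669-12344320 (plus). The canonical transcript of each of the 10 genes has 4 exons. So the 3 alpha-tubulin neighbours, with 3 different responses to abemaciclib (up, down and not past the test), share a locus.

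The proximal promoters of these 3 genes are shown because of these values, with that of TUBB4B. Among the members, TUBB4B correlated most closely with TUBA1B over all 12 libraries (0.965, and 0.38 within groups). Each promoter is the 250 bases before a RefSeq transcription start (GRCh38.p14), 5′ to 3′ on the gene's strand, at chr12:49189081-49189330 (minus) for TUBA1A, chr12:49131396-49131645 (minus) for TUBA1B, chr12:49264832-49265081 (plus, 1 of 3 starts listed and that of the canonical transcript) for TUBA1C and chr9:137241037-137241286 (plus) for TUBB4B. Capitals mark CCAAT or its reverse complement, the box read by NF-Y, and TTTGAA or its reverse complement, the core of the cell cycle genes homology region (CHR). Both strands were searched in this way, and no match of one motif overlaps one of the other.
TUBA1A promoter: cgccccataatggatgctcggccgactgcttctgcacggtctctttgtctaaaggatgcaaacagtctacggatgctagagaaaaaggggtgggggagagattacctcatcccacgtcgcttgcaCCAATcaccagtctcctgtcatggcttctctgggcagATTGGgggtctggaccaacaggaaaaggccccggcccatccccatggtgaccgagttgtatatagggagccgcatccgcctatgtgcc
TUBA1B promoter: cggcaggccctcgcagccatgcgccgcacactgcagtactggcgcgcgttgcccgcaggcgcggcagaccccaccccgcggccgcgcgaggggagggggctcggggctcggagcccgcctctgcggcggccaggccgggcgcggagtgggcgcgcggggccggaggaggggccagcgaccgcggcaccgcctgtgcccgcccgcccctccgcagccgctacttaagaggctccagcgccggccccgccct
TUBA1C promoter: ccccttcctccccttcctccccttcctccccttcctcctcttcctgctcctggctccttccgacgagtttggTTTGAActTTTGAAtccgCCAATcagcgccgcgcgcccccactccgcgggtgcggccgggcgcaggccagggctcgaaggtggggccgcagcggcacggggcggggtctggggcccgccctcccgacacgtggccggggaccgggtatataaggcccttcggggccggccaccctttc
TUBB4B promoter: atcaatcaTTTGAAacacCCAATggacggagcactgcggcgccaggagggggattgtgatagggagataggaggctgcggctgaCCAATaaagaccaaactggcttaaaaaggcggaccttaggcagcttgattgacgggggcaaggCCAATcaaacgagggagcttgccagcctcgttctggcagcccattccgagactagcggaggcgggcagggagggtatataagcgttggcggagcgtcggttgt

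TUBA1A had 2 CCAAT boxes, 125 and 88 bases before the start, and no CHR core. TUBA1B had neither motif, and 81.2% of its window was G or C. TUBA1C had 1 CCAAT box, 160 bases before the start, and 2 CHR cores, 178 and 170 bases before it. TUBB4B had 3 CCAAT boxes (232, 166 and 103 bases before the start) and 1 CHR core (242 bases before it). Over 35116 RefSeq promoter windows of the same length, 32.0% held a CCAAT box, 9.53% at least 2 of them, 13.3% a CHR core and 4.69% both motifs. A match or its absence here describes only the letters of the window.

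Near-identical isotypes can share reads. Among the last 500 bases of each canonical transcript, where 3′-end fragments are drawn, the share of 100-base windows with an exact second copy in the genome was 49.9% for TUBB2A, 29.7% for TUBA1B, 11.7% for TUBB3, 11.0% for TUBB4B and 7.98% for TUBA1A, and 0 for the other 5 genes. Within the last 300 bases it was 0 of 201 windows for each of the 10 genes, but of 251 windows of 50 bases there, which matter for trimmed reads, 69 had a second copy for TUBA1A, 50 for TUBB2A, 35 for TUBA1B and 30 for TUBB4B. Over the 500 bases the shares of 50-base windows reached 55.4% for TUBB2A, 49.9% for TUBA1B and 36.1% for TUBA1A, so these 3 genes are the most exposed to read sharing.

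When the rows of TUBA1A, TUBA1B and TUBA1C were summed, the sum fell by 0.43 ± 0.12 on the log2 scale with abemaciclib (adjusted p = 0.008), by 1.41 ± 0.12 with fulvestrant (adjusted p = 7.26e-08) and by 1.74 ± 0.12 with the combination (adjusted p = 5.1e-09). The sum thus followed TUBA1B, and the rise of TUBA1A was too small in reads to show in it. TUBB2A and TUBB2B summed gave 1.65 ± 0.09 with abemaciclib, the value of TUBB2A alone. TUBB2B held 3 reads in all, beside 6131 for TUBB2A, so this sum could only repeat TUBB2A. Any reads left out of counting because they match several places are in no row, and sums of rows cannot show their effect. The 39 tubulin pseudogene rows together held 1660 reads, 0.67% of the 247599 reads of the 10 genes. Most of them were on TUBBP1, at 28.0 ± 1.20 CPM in DMSO and 22.2 ± 3.23, 15.4 ± 2.58 and 16.3 ± 3.76 with the 3 treatments, and on TUBAP5, at 9.71 ± 1.49 CPM in DMSO and 10.5 to 10.9 with treatment.

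The last 500 bases of TUBA1B are overlapped on the opposite strand by TUBA1B-AS1 and those of TUBA4A by STK16, each over 100% of their length, and those of TUBB4B by FAM166A over 24.8%. The library kit marks strand, but whether counting used it is not given in the sources used here, and without strand reads of such a pair cannot be told apart. STK16, a kinase gene, had 52.1 ± 1.82 CPM in DMSO and 75.2 ± 3.42, 70.1 ± 3.20 and 77.9 ± 1.36 with the 3 treatments. It rose by 0.53 on the log2 scale with abemaciclib (adjusted p = 4.7e-05), 0.43 with fulvestrant (adjusted p = 0.000425) and 0.58 with the combination (adjusted p = 5.99e-06). FAM166A had 1 read in all 12 libraries. TUBA1B-AS1 had no row by that name in the counts, so its level is not given.

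Of 13 other tubulin genes, 4 (TUBA3C, TUBA8, TUBA4B and TUBB8) were at 0 in every library, 5 were too low to test and 4 were tested. TUBG1, the gamma-tubulin of the nucleating ring, had 242 CPM on average in DMSO, 154 with abemaciclib, 111 with fulvestrant and 107 with the combination. It fell in all 3 comparisons (log2 -0.65 ± 0.08, adjusted p = 1.45e-07, then -1.13 ± 0.08, adjusted p = 3.35e-12, and -1.17 ± 0.08, adjusted p = 1.01e-12). Its paralogue TUBG2 rose from 6.61 CPM to 12.2 with fulvestrant (adjusted p = 0.00179) and 15.9 with the combination (adjusted p = 1.5e-05). TUBD1, delta-tubulin, fell with fulvestrant (log2 -0.64 ± 0.22, adjusted p = 0.0155) and with the combination (log2 -0.64 ± 0.21, adjusted p = 0.0121).

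The gamma-tubulin ring complex and the augmin subunits that dock it on spindle microtubules had no gene past the test upward with abemaciclib. Of 17 tested genes 11 fell and none rose with abemaciclib, 13 fell and 1 rose with fulvestrant, and 14 fell and 1 rose with the combination, with medians of -0.48, -0.69 and -0.77. Over all genes tested, the shares that fell in these 3 comparisons, which are the background for each list here, were 20.7%, 25.7% and 27.5%, and those that rose 20.5%, 25.3% and 27.7%. The augmin subunit HAUS1 went from 21.7 CPM in DMSO to 5.78, 8.58 and 4.38 (log2 -1.90, -1.33 and -2.29), and HAUS8 from 29.7 to 14.0, 9.66 and 8.60. MZT1, a small subunit of the ring, fell in all 3 comparisons. Its log2 fold change was -0.76 with abemaciclib (adjusted p = 4.7e-05), -1.32 with fulvestrant (adjusted p = 1.42e-08) and -1.68 with the combination (adjusted p = 1.38e-10).

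Of 11 tested genes of the chaperonin that folds tubulin, CCT, and its partners, 4 fell with abemaciclib, 9 with fulvestrant and 9 with the combination, and none rose, beside the background shares of 20.7%, 25.7% and 27.5% lower. With abemaciclib CCT3 (-0.05, adjusted p = 0.606), CCT4 (0.11, adjusted p = 0.411), CCT7 (-0.15, adjusted p = 0.161) and CCT8 (-0.17, adjusted p = 0.0951) did not pass. CCT5 fell from 582 CPM to 345, 258 and 243 (log2 -0.76, -1.17 and -1.26, adjusted p = 2.37e-09, 2.21e-13 and 3.17e-14), and TCP1 from 214 to 137, 116 and 93.0 CPM. Prefoldin, which delivers tubulin to CCT, had 2, 2 and 3 of 6 genes lower and none higher, PFDN4 among them (log2 -0.52, -0.51 and -0.79). Of 9 tested tubulin cofactors and their ARL regulators, 4, 4 and 3 fell and 1, 0 and 1 rose. The prefoldin and cofactor counts stand against the same background shares and rest on few genes. ARL3 fell from 47.4 CPM to 32.3, 23.2 and 23.2, and TBCB rose with abemaciclib (log2 0.52 ± 0.17, adjusted p = 0.0351). Of 5 genes of tubulin autoregulation, CNOT10 alone passed the test, lower in each comparison (log2 -0.62, -0.54 and -0.59).

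Against the same background shares, among 10 tested microtubule destabilising and severing genes, 6 fell and 1 rose with abemaciclib, 5 fell and none rose with fulvestrant, and 5 fell and 1 rose with the combination. STMN1, stathmin, which sequesters tubulin dimers, went from 578 CPM to 255, 223 and 169 (log2 -1.18, -1.37 and -1.77). KIF2C, the mitotic depolymerising kinesin, fell by 2.29 ± 0.23 on the log2 scale with abemaciclib (adjusted p = 6.18e-09). Of 24 tested microtubule-associated protein genes 5, 6 and 5 rose and 4, 9 and 9 fell. MAP2, best known from neuronal dendrites, rose from 2.89 CPM to 13.1, 18.9 and 26.9 (log2 2.27, 2.79 and 3.3, adjusted p = 6.62e-08, 3.21e-10 and 2.43e-12), and GTSE1, a spindle protein, fell from 70.4 CPM to 8.16, 4.75 and 0.241. Of 17 tested tubulin-modifying enzyme genes 2, 3 and 4 rose and 2, 2 and 2 fell, fewer than the 41.2%, 51.0% and 55.2% of all genes that passed. The mean levels of these 17 genes in DMSO ran from 2.29 CPM (TTLL3) to 62.8 CPM (TTL), and low levels limit what the test can detect. TTLL1, a polyglutamylase, rose (log2 1.07, 1.46 and 1.66) and AGTPBP1, a deglutamylase, fell (log2 -0.88, -0.92 and -0.79).

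Since TUBA1A and TUBB2A are abundant in neurons, 10 neuronal markers were read beside them. GAP43, NEFL and NEFM were at 0 in every library, 9 of the 10 were too low to test, and the summed level was 7.22 to 9.51 CPM in DMSO, 13.4 to 17.6 with abemaciclib, 19.4 to 22.3 with fulvestrant and 27.9 to 30.8 with the combination. MAP2 accounted for most of the sum in the treated groups, and the mean levels of DCX and ENO2, which were not tested, were lower in each treated group than in DMSO. The order of the MAP2 groups, highest with the combination, differed from that of TUBA1A and TUBB2A, highest with abemaciclib alone. The proliferation markers moved with the fall of TUBA1B, group by group, and their part in that fall was not tested.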

How the data were processed

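RNA from 12 CAMA-1 cultures, 3 in each of 4 groups set by the labels, was sequenced at the 3′ end (QuantSeq FWD, single-end 100-base reads). According to the methods, the authors trimmed reads with BBDuk, aligned them to hg38 with STAR 2.7.5b and deposited raw counts per gene from featureCounts (Subread 2.0.1) with GENCODE 35. Their settings for strand, multimapping and overlapping genes are not given in the sources used here. The 44 rows with no gene name held 0 reads and were left out.

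Counts were filtered with filterByExpr (minimum count 10, minimum total 15), scaled by TMM and fitted with edgeR 4.0.16 in R 4.3.3, using a robust quasi-likelihood fit of 4 group means over all 12 libraries. Adjusted p-values are Benjamini-Hochberg values from edgeR's two-sided quasi-likelihood test over all 11803 genes, with a threshold of 0.05, in 6 comparisons. DESeq2 1.42.0, other scalings and filters, summed paralogues, a replicate block and leaving out each library were the alternatives. On simulated data with 200 genes changed 2-fold, the fit recovered 154 of them for abemaciclib against DMSO among 11570 genes, with 9 false calls, and 122 of them for the interaction among 11573 genes, with 9 false calls and 2 of wrong sign. Only these 200 genes changed in the simulation, while 41.2% of all genes tested passed in the measured comparison of abemaciclib with DMSO. The simulation therefore does not show the error rates or the scaling under so broad a change. Exact permutation of 3 against 3 libraries cannot go below p = 0.1 and was not used. CPM precision is limited by 3299119 to 5164667 reads per library. Log2 CPM for correlations used a prior count of 2.

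The members and lists were chosen with earlier results of these data known. All members are named, and from each other list up to 3 genes per comparison with the largest change among those past the threshold, with a mean of at least 10 CPM in a group and no overlap of libraries; any other gene named was chosen after its values were seen. Positions and 3′ ends are from GENCODE 44 on GRCh38, and promoters from RefSeq.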

Additional observations from a re-analysis of the deposited data

Results flagged for a closer look

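2 results stood out because the response to abemaciclib differed between cells without and with fulvestrant, by the test of the interaction itself. TUBB2A had an interaction of -1.66 ± 0.12 on the log2 scale (adjusted p = 4.39e-10), with abemaciclib raising it by 1.65 without fulvestrant and changing it by -0.01 with it. TUBA4A had an interaction of -1.05 ± 0.14 (adjusted p = 4.32e-06), with changes of 1.43 and 0.38. Over the alternative settings the interaction ranged from -1.73 to -1.61 for TUBB2A and from -1.13 to -0.97 for TUBA4A.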

How the results depend on the processing

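The counts of members past the threshold, taken here with TUBB6 included, stayed within 1.5 times in 5 of the 6 comparisons under each alternative that gave a value. TUBB6 is described without a test in the text, so its part in these counts carries no support for their stability. For combination against fulvestrant the count of 2 became 1 with at least 10 counts in every library, 1 with DESeq2, 1 with paralogue rows summed and 0 with only the groups compared (2 of 6 members then had an unadjusted p under 0.05, and DESeq2 called 1), and it ranged from 0 to 2 when each library was left out. It was 0 without fulvestrant replicate 2, combination replicate 1 or combination replicate 2, with 2 members at an unadjusted p under 0.05 each time. TUBA1B in that comparison gave adjusted p = 0.0614 with only the groups compared, where it was 0.0275. TUBA4A, at 0.0391, also lost its call there without DMSO replicates 2 or 3, abemaciclib replicates 2 or 3, fulvestrant replicate 2 or any 1 combination library (adjusted p = 0.0532 to 0.239 over all settings that lost it). TUBB against DMSO passed with DESeq2 (0.34, adjusted p = 0.0319, with abemaciclib and -0.35, adjusted p = 0.0178, with the combination) and, for the combination, with only the groups compared (adjusted p = 0.047). The cause of these changes was not tested.

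No pairing of the samples by replicate number was visible, though these values cannot show whether same-numbered cultures were handled together. Same-numbered libraries of different groups correlated in their deviations at -0.215 to 0.119 (median 0.0228, 18 pairs), and other pairs at -0.208 to 0.301 (36 pairs). Blocking on replicate number gave 3, 6, 6, 7, 2 and 2 members called in the 6 comparisons, in the order of the text. These counts include TUBB6, which the counts in the text leave out, and were the same without the block. Leaving out TUBB6, the counts without the block were 3, 5, 5, 6, 2 and 2. Beside them stood 41.2%, 51.0%, 55.2%, 33.5%, 1.92% and 21.1% of all genes.

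The values that changed sign were not past the threshold. TUBB2A in combination against fulvestrant became 0.0013 with upper-quartile factors, and the interaction of TUBB4B became -0.0092 with upper-quartile factors and -0.0109 with no filter. With each library left out, the interaction ranged from -0.0699 to 0.0409 for TUBB4B and from -0.5785 to 0.4778 for TUBB6, and combination against fulvestrant from -0.1952 to 0.0523 for TUBB, -0.899 to 0.1563 for TUBB6, -0.2122 to 0.0035 for TUBA1C, -0.0737 to 0.0427 for TUBB2A and -0.0729 to 0.1488 for TUBA1A. Other scalings moved the median of all genes by less than 0.1. The beta-tubulin sum with abemaciclib was 3525 CPM on unscaled totals and 3608 CPM with TMM. The mean of the alpha and beta sums without 1 library, an alternative added after the data were seen, moved by less than the SD in all 4 groups. With 3 libraries in a group this shift is below the SD for any values, so it shows nothing about stability. TUBB6, TUBB2B and TUBB3 are limited by depth.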
